A study of Mus musculus with 10 samples.

Results

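The ErbB receptors and their ligands were examined in mouse hearts at postnatal day 10. The set held 9 genes chosen by name, of 55858 genes in the table: the 4 receptors Egfr, Erbb2, Erbb3 and Erbb4 and the 5 ligands Hbegf, Areg, Ereg, Btc and Nrg1. The cKO group was 5 mice that received 0.1 mg/g of tamoxifen by subcutaneous injection on 2 days from postnatal day 0, and the control group was 5 mice given corn oil. Both groups had the genotype labelled MCM; Chmp4bF/F, so both carried the MCM transgene and the floxed Chmp4b alleles, and only the cKO mice received the drug. The product of Chmp4b belongs to ESCRT-III, which cuts membrane necks, and the series title links it to the formation of cardiac T-tubules. The ESCRT machinery as a whole sorts ubiquitinated receptors into multivesicular bodies. Which promoter drives MCM was not stated in any source used here. Deletion of Chmp4b and exposure to tamoxifen cannot be told apart in this design.

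ErbB receptors are tyrosine kinases that work in pairs. Egfr, the receptor for EGF, binds Hbegf, Areg, Ereg, Btc and Tgfa. Erbb2 has no known ligand and is the favoured partner of the others. Erbb3 binds neuregulins, has a weak kinase of its own and signals mainly through PI3K. Erbb4 binds neuregulins, Btc and Hbegf. In the heart, neuregulin from endothelial cells acts on Erbb4 and Erbb2 of cardiomyocytes, and this signal is needed for trabeculation and for growth of the young myocardium. The ligands are made as membrane proteins and released by metalloproteases, and the bound receptors are ubiquitinated, taken up and sorted by the ESCRT machinery to the lysosome.

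Values were TPM, a level per gene length that sums to 1000000 in each library, so levels of different genes can be set side by side. Mitochondrially encoded transcripts took 39.4% ± 2.34 of the total in cKO hearts and 55.4% ± 3.96 in control hearts (SD, n = 5 each). The median tested gene was 0.63 higher in cKO hearts on the log2(TPM + 1) scale. Each gene is therefore given as deposited and also relative to the median gene, that is, as TPM divided by a size factor for the library (1.196 to 1.38 in cKO, 0.697 to 0.843 in control libraries), called scaled TPM below. Relative to the median gene the median difference over all tested genes was 0.01. Chmp4b averaged 38.2 ± 1.42 TPM in cKO hearts and 47.5 ± 8.61 TPM in control hearts, and 29.5 ± 1.38 against 60.8 ± 6.51 scaled TPM (limma log2 difference −1.01 ± 0.08 SE, adjusted p = 1.86e-06). The labels give no sex. Xist, the RNA that silences an X chromosome in female cells, reached 1 TPM in 3 of 5 cKO libraries (replicates 1, 5 and 7) and in 0 of 5 control libraries. Relative results of the members that passed the low-value filter, and the counts by gene list, are therefore also given without those 3. Such fits keep only cKO replicates 3 and 6 beside the 5 control libraries, so their tests rest on fewer libraries. Cardiomyocyte genes were abundant in all 10 libraries, with Myh6, the main myosin heavy chain of the adult mouse heart, at 3012 ± 326 TPM in cKO hearts and 3803 ± 511 TPM in control hearts.

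The receptors did not move together. Relative to the median gene, Egfr and Erbb2 rose and Erbb3 fell in cKO hearts, and Erbb4 did not pass the test. As deposited, Egfr, Erbb2 and Erbb4 rose and Erbb3 did not pass. Only 5 of the 9 members passed the low-value filter and were tested. Of these 5, 4 were called higher as deposited, where 76.5% of tested genes were called higher, and 0 were called lower, where 3.46% were. No member had all cKO values below all control values as deposited, as 1.92% of tested genes did. Relative to the median gene 2 of the 5 tested members were called higher and 1 lower, against a background of 20.8% in each direction. Without the 3 cKO libraries with Xist, 1 of the 5 was called higher and 0 lower, where 12.4% and 13.7% of tested genes were. A gene was called at a limma adjusted p under 0.05 over the 13282 genes with at least 1 TPM in at least 5 of the 10 libraries. Hbegf and the 4 receptors passed that filter, Egfr mainly through the cKO group, since it reached 1 TPM in 5 of 5 cKO and 1 of 5 control libraries. Areg, Ereg, Btc and Nrg1 stayed under it.

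**Figure D1:**
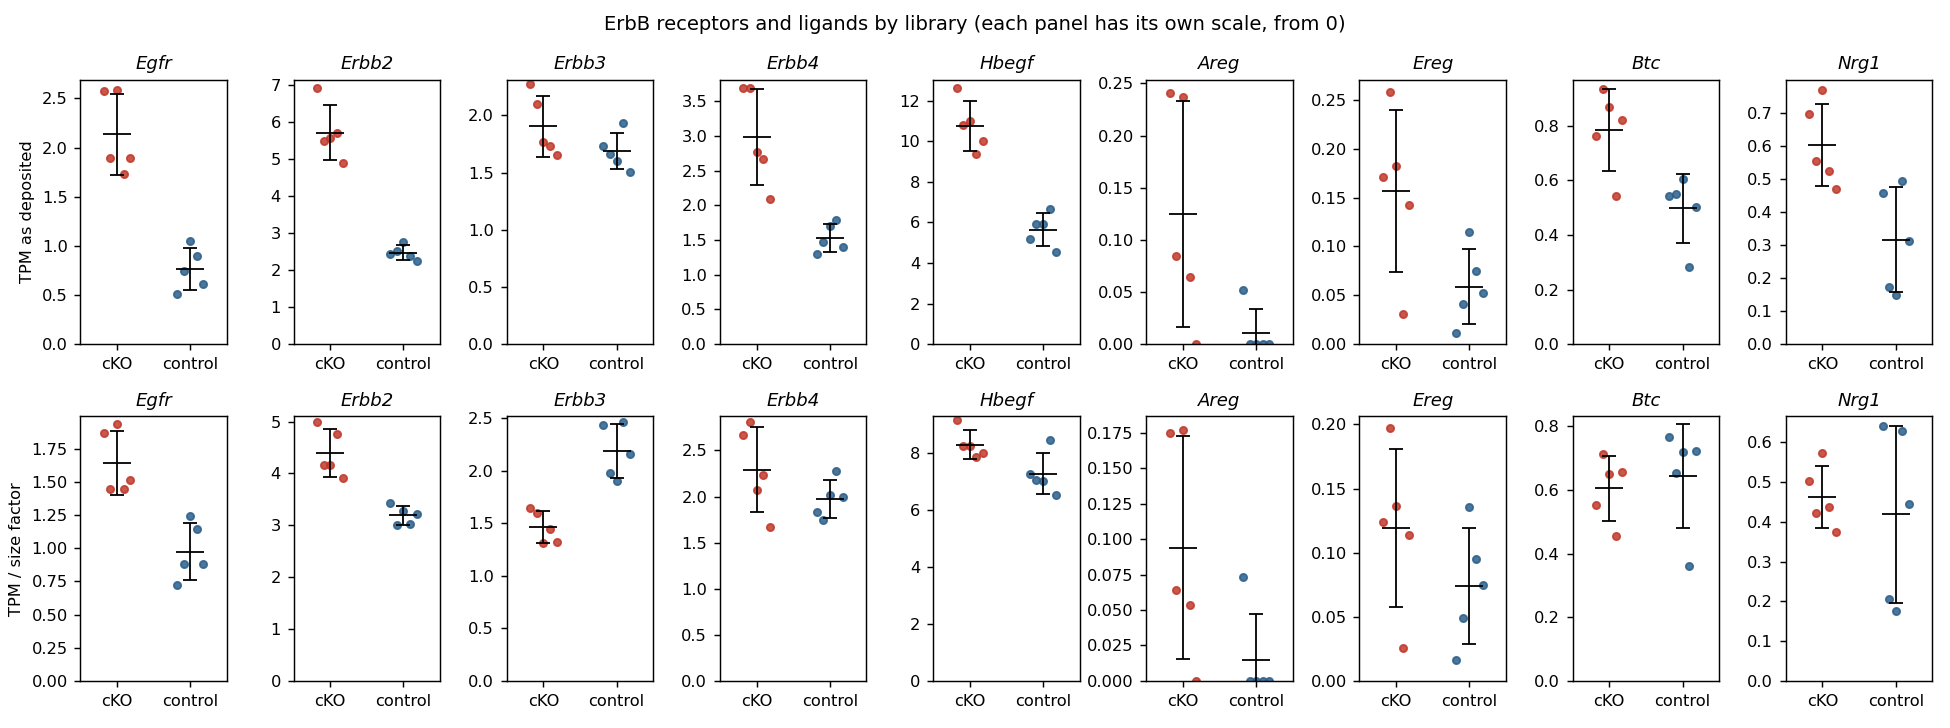
Level of each member in every library, as TPM (upper row) and as TPM divided by the library's size factor (lower row), with cKO left of control. Points are single hearts, bars are the mean with the SD (n = 5 each), and each panel has its own axis from 0; the cKO points for Egfr and Erbb2 lie above all control points in both rows, and those for Erbb3 lie below all control points in the lower row only.

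Egfr and Erbb2 are shown first, with the start of each gene, because they were higher in cKO hearts on both scales. Their promoter windows, from 250 bases before to 50 bases after the start, come from RefSeq on GRCm38.p6. Capitals mark matches on either strand to AGGAAG, 1 form of the ETS core that factors such as Etv4 bind, or to a GC box (GGGCGG, bound by Sp1). Other forms of the ETS core were not searched, so an unmarked stretch may still hold a site.
Egfr, chr11:16751953-16752252, plus strand: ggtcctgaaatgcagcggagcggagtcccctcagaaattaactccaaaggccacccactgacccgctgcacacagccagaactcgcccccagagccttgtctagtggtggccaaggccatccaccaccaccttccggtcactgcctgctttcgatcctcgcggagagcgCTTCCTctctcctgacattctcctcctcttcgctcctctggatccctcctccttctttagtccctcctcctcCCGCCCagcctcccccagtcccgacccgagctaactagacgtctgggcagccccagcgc
Erbb2, chr11:98412234-98412533, plus strand: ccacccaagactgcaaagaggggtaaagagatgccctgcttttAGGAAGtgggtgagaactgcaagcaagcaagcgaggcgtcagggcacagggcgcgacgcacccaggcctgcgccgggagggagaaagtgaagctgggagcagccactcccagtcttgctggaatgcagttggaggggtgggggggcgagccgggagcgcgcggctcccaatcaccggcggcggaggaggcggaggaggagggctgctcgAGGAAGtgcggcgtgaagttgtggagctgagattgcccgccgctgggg
The Egfr window held AGGAAG 1 time, read on the minus strand as CTTCCT, and 1 GC box, read on the minus strand as CCGCCC, next to the start. Erbb2's window held 2 copies of AGGAAG on the plus strand, 1 of them just after the start, and no GC box. AGGAAG stood in 35.4% and a GC box in 35.6% of all 32817 windows, so neither is rare. Neither window held a TATA box (TATAAA, in 13.6% of windows), an EGR site (GCGNGGGCG, in 5.56%) or an AP-1 site (TGANTCA, in 7.81%). GC content was 62.3% for Egfr and 66.0% for Erbb2, against a median of 52.7% over all windows, and CpG counts were 15 and 21, against a median of 7. Of the other members, Erbb4, Areg and Btc also had a window. Their GC content was 55.3%, 59.3% and 60.3%, also above the median, and their CpG counts were 17, 21 and 5. No AGGAAG or GC box was found for Erbb4 or Btc, and Areg, whose values were near 0, held 2 of each and a TATA box.

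Egfr (ENSMUSG00000020122.17, chromosome 11, 16752203 to 16918158, plus strand, GRCm38) encodes the receptor for EGF, Tgfa, Hbegf and related ligands. It was at 2.58, 1.89, 2.59, 1.73 and 1.89 TPM in cKO replicates 1, 3, 5, 6 and 7, and at 0.515, 0.743, 1.05, 0.901 and 0.613 TPM in control replicates 4, 6, 8, 9 and 13. Every cKO heart was above every control heart, and replicates 1 and 5 were the highest. The means were 2.14 ± 0.413 TPM in cKO and 0.764 ± 0.214 TPM in control hearts, a ratio of 2.80 (limma log2 difference 0.83 ± 0.13 SE, adjusted p = 8.77e-05). On scaled values the ratio was 1.68 (1.64 ± 0.240 against 0.9751 ± 0.213 scaled TPM; limma log2 difference 0.42 ± 0.11 SE, adjusted p = 0.00870), and the groups again did not overlap. All cKO above all control values held for 62.5% of tested genes as deposited and for 15.8% relative to the median gene. The relative difference of Egfr was larger than that of 85.7% of tested genes. Replicates 1 and 5, the highest, are among the 3 cKO libraries with Xist. Without those 3 the relative log2 difference was 0.32 with a limma adjusted p of 0.163, so the call was lost. Only cKO replicates 3 and 6 were left in that fit. They were at 1.44 and 1.45 scaled TPM, above the highest control heart at 1.24. The antisense gene Egfros overlaps Egfr, and the strand setting of the counting was not given, so their reads cannot be told apart.

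Erbb2 (ENSMUSG00000062312.6, chromosome 11, 98412470 to 98437716, plus strand) encodes the co-receptor that binds no ligand of its own. Its level was 6.90, 5.47, 5.57, 5.70 and 4.89 TPM in the cKO replicates, and 2.44, 2.52, 2.77, 2.38 and 2.24 TPM in the controls, each in the order above. It was the most abundant receptor in every library, and the control hearts lay close together. The means were 5.71 ± 0.736 TPM in cKO and 2.47 ± 0.194 TPM in control hearts, a ratio of 2.31 (limma log2 difference 0.94 ± 0.10 SE, adjusted p = 4.16e-06). In scaled TPM, cKO hearts averaged 4.40 ± 0.461 and control hearts 3.19 ± 0.177, a ratio of 1.38 (limma log2 difference 0.36 ± 0.08 SE, adjusted p = 0.00362). All 5 cKO hearts were above all 5 control hearts on both scales. Without the 3 cKO libraries with Xist the relative log2 difference was 0.38, with a limma adjusted p of 0.0307. Mien1 overlaps Erbb2 on the opposite strand, with the same limit as for Egfr.

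Erbb3 (ENSMUSG00000018166.9, chromosome 10, 128567523 to 128589652, minus strand) encodes the neuregulin receptor with a weak kinase and many docking sites for PI3K. It was at 2.27, 2.10, 1.76, 1.73 and 1.65 TPM in cKO hearts, and at 1.73, 1.66, 1.60, 1.93 and 1.51 TPM in control hearts. As deposited the groups overlapped and the difference was within their spread (1.90 ± 0.268 against 1.69 ± 0.160 TPM; limma log2 difference 0.11, 95% interval −0.12 to 0.34, adjusted p = 0.366). Scaled values were 1.65, 1.60, 1.32, 1.45 and 1.32 in cKO hearts and 2.43, 1.98, 1.90, 2.46 and 2.16 in control hearts. On that scale every cKO heart was below every control heart, as for 15.5% of tested genes, with means of 1.47 ± 0.154 and 2.19 ± 0.256 (limma log2 difference −0.37 ± 0.09 SE, adjusted p = 0.00693). The relative difference of Erbb3 was above that of only 18.1% of tested genes. Without the 3 cKO libraries with Xist the relative log2 difference was −0.33, with a limma adjusted p of 0.0924.

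Erbb4 (ENSMUSG00000062209.16, chromosome 1, 68032186 to 69108059, minus strand) encodes the neuregulin receptor of cardiomyocytes. Its values were 3.69, 3.68, 2.76, 2.67 and 2.10 TPM in cKO hearts, and 1.31, 1.47, 1.70, 1.79 and 1.39 TPM in control hearts. Every cKO heart was above every control heart, and cKO replicates 1 and 3 stood highest. The means were 2.98 ± 0.693 and 1.53 ± 0.207 TPM, a ratio of 1.95 (limma log2 difference 0.64 ± 0.13 SE, adjusted p = 7.107e-04). After scaling the groups overlapped, with means of 2.29 ± 0.462 for cKO and 1.97 ± 0.205 for control (limma log2 difference 0.14, 95% interval −0.11 to 0.38, adjusted p = 0.354). That difference ranged from 0.08 (without cKO replicate 3) to 0.21 (without cKO replicate 7) when single libraries were left out, and was 0.24 (limma adjusted p = 0.216) without the Xist libraries, never called.

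**Figure D2:**
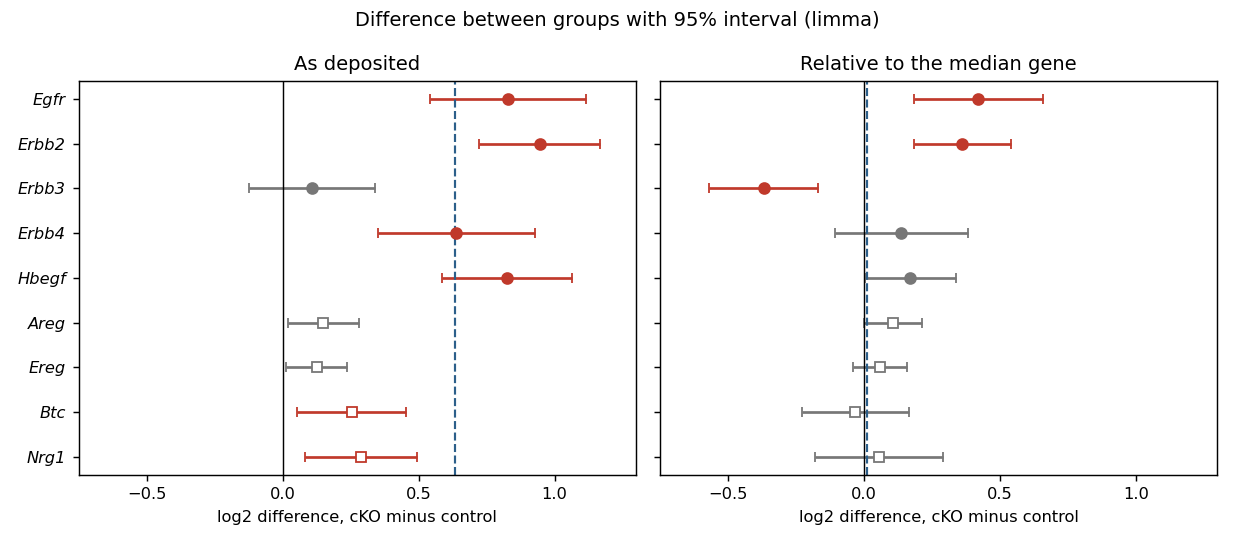
Log2 difference, cKO minus control, with its 95% interval for each member, as deposited (left) and relative to the median gene (right); red marks called genes, grey those not called, filled circles the filtered test, open squares the test with no filter, and the dashed line the median of all tested genes. On the right the intervals for Egfr and Erbb2, and just so for Hbegf, which was not called, lie above 0, that for Erbb3 lies below 0, and Erbb4 sits at 0.14.

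The plot of differences with their intervals sets the members beside the median of all tested genes. On the log2(TPM + 1) scale, a shift shared by all genes is smaller for genes of low TPM. The dashed line on the left is therefore not the shift that a low gene such as Egfr would show by moving with the median gene. Among the members that passed the filter, the deposited-scale intervals of Egfr, Erbb4, Hbegf and Erbb2 lie above 0, and those of Egfr, Erbb4 and Hbegf also cover the dashed line at 0.63, while that of Erbb2 lies above it. On the right panel the members spread to both sides of 0.

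The makeup of the receptor pool does not depend on the scale, since a size factor cancels within a library. The summed receptor level was 12.7 ± 1.81 TPM in cKO hearts and 6.45 ± 0.602 TPM in control hearts. Erbb3 made up 13.9% to 15.97% of that sum in cKO hearts and 22.6% to 28.9% in control hearts, with no overlap. Erbb2 made up 41.6% to 48.2% in cKO and 34.0% to 40.7% in control hearts, also with no overlap. Egfr made up 16.8% ± 2.49 in cKO and 11.7% ± 2.30 in control hearts, and the groups overlapped at 14.4% to 14.7%. Erbb4 had nearly the same share, 23.2% ± 3.05 in cKO and 23.7% ± 1.41 in control hearts. The largest shift was that of Erbb3, which was the second receptor in control hearts and the last in cKO hearts by mean level. The order by mean level was Erbb2, Erbb4, Egfr, Erbb3 in cKO hearts and Erbb2, Erbb3, Erbb4, Egfr in control hearts. In cKO hearts Erbb4 and Egfr had overlapping ranges, although Erbb4 was above Egfr in 5 of 5 libraries, and Egfr was above Erbb3 in 4 of 5. In control hearts Erbb3 was above Erbb4 in 4 of 5 libraries with overlapping ranges, and Egfr was below Erbb4 without overlap.

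**Figure D3:**
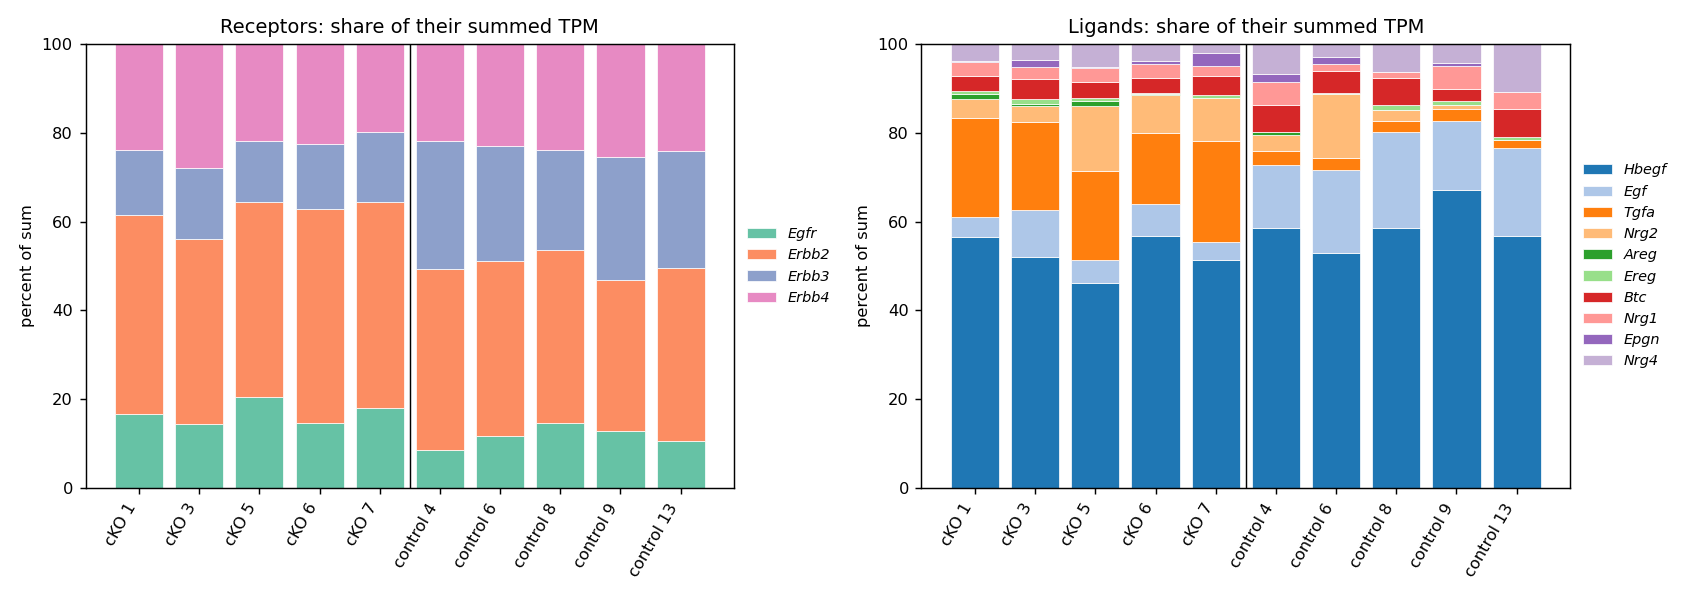
Share of each receptor in the summed TPM of the 4 receptors (left) and of each ligand in the summed TPM of all ErbB ligands above 0 (right), in percent, 1 bar per library, with cKO left of the line and control right of it. Erbb3 takes 13.9% to 15.97% of the receptor bars in cKO and 22.6% to 28.9% in control, and Tgfa takes 16.04% to 22.8% of the ligand bars in cKO and 1.91% to 3.12% in control.

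Among the 5 ligands, Hbegf was the most abundant in every library and the others were low. Hbegf rose as deposited, and its difference did not pass the test relative to the median gene. Hbegf (ENSMUSG00000024486.7, chromosome 18, 36504927 to 36515805, minus strand) encodes a heparin-binding ligand of Egfr and Erbb4 that is needed for a normal heart in mice. It was at 12.6, 10.8, 11.0, 9.38 and 9.9965 TPM in cKO hearts, and at 5.17, 5.93, 5.91, 6.66 and 4.56 TPM in control hearts. Every cKO value was above every control value, with means of 10.8 ± 1.23 and 5.64 ± 0.803 TPM (limma log2 difference 0.83 ± 0.11 SE, adjusted p = 2.21e-05). Scaled values were 9.15, 8.24, 8.23, 7.85 and 7.98 in cKO hearts, and 7.27, 7.06, 7.0044, 8.47 and 6.54 in control hearts. The groups overlapped there only through control replicate 9, the highest control, and the means were 8.29 ± 0.510 and 7.27 ± 0.724 (limma log2 difference 0.17 ± 0.08 SE, 95% interval 0.0032 to 0.34, adjusted p = 0.0957). Without control replicate 9, the highest, the relative log2 difference was 0.22, with a limma adjusted p of 0.0323. Leaving out any of the other 9 libraries singly gave 0.14 to 0.19 (limma adjusted p = 0.102 to 0.197), and leaving out the 3 with Xist gave 0.13 (limma adjusted p = 0.417).

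Btc and Nrg1, under the filter, were tested in a limma fit with no filter over 28821 genes, of which 37.9% were called higher and 1.84% lower as deposited, and 9.44% and 9.34% relative to the median gene. Btc (ENSMUSG00000082361.7), a ligand of Egfr and Erbb4, was at 0.763, 0.934, 0.871, 0.542 and 0.820 TPM in cKO hearts, and at 0.545, 0.550, 0.606, 0.283 and 0.504 TPM in control hearts. Most cKO hearts were higher, cKO replicate 6 fell among the controls, and control replicate 9 was the lowest. The log2 difference was 0.25 as deposited (limma adjusted p = 0.0457) and −0.03 after scaling (limma adjusted p = 0.848). Nrg1 (ENSMUSG00000062991.10), the neuregulin that acts on Erbb3 and Erbb4, was at 0.694, 0.555, 0.768, 0.524 and 0.470 TPM in cKO hearts, and at 0.456, 0.173, 0.148, 0.494 and 0.310 TPM in control hearts. Only control replicate 9 was above the lowest cKO heart, and the control hearts spread more widely. Its log2 difference was 0.29 as deposited (limma adjusted p = 0.0302) and 0.06 after scaling (limma adjusted p = 0.757). A second row with the symbol Nrg1 was listed at 0 in all 10 libraries. The test as deposited was sensitive to settings for both genes: with a pseudocount of 0.1 neither was called.

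Areg and Ereg, ligands of Egfr with low affinity, were close to 0. Areg (ENSMUSG00000029378.6) was at 0.241, 0.0844, 0.236, 0.0640 and 0 TPM in cKO hearts, and at 0.0520 TPM in control replicate 4 and 0 in the other 4 controls. Ereg (ENSMUSG00000029377.6) was at 0.171, 0.258, 0.182, 0.0304 and 0.142 TPM in cKO hearts, and at 0.0117, 0.0414, 0.114, 0.0748 and 0.0521 TPM in control hearts. The groups overlapped for both genes, and neither was called in the fit with no filter (as deposited, limma adjusted p = 0.0706 for Areg and 0.0770 for Ereg; after scaling, 0.179 and 0.467). At these levels a few reads decide the value, and TPM does not give the number of reads. Ereg, Areg and Btc lie near each other on chromosome 5, at 91074622 to 91093646, 91139599 to 91148432 and 91357261 to 91402994. Nrg1 lies on chromosome 8, at 31814551 to 32884029 on the minus strand.

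Of the 6 other ErbB ligands, Tgfa rose on both scales and Egf fell relative to the median gene. Tgfa, a ligand of Egfr made by many epithelial and immune cells, was at 5.01, 4.10, 4.80, 2.65 and 4.44 TPM in cKO hearts, and at 0.275, 0.287, 0.233, 0.271 and 0.153 TPM in control hearts. Every cKO heart was above every control heart, and Tgfa passed the filter only through the cKO group. Its scaled ratio was 10.3 (limma log2 difference 1.67 ± 0.12 SE, adjusted p = 1.12e-06), and the log2 difference was 1.47 without the Xist libraries (limma adjusted p = 3.81e-04). Egf, the founding ligand of the family, was at 0.971, 2.21, 1.27, 1.19 and 0.769 TPM in cKO hearts, and at 1.26, 2.11, 2.18, 1.54 and 1.59 TPM in control hearts. As deposited the groups overlapped (limma adjusted p = 0.136), and after scaling Egf fell without overlap (log2 difference −0.71 ± 0.14 SE, limma adjusted p = 0.00200). Without the 3 cKO libraries with Xist, the log2 difference of Egf was −0.47 (limma adjusted p = 0.0745). Of the summed level of all ErbB ligands, 20.6 ± 2.81 TPM in cKO and 9.62 ± 1.218 TPM in control hearts, Tgfa made up 20.2% ± 2.72 in cKO and 2.53% ± 0.452 in control hearts. Egf made up 6.28% ± 2.73 of it in cKO and 17.99% ± 3.06 in control hearts, again without overlap. Hbegf made up 46.1% to 56.7% in cKO and 52.9% to 67.2% in control hearts. Nrg2, a neuregulin, averaged 1.69 ± 1.09 TPM in cKO and 0.457 ± 0.657 TPM in control hearts, Nrg4 0.770 ± 0.308 and 0.568 ± 0.209, and Epgn 0.219 ± 0.220 and 0.0839 ± 0.0858. In the fit with no filter, Nrg2 was called higher as deposited (log2 difference 0.90, limma adjusted p = 0.0434), and none of these 3 was called after scaling. Nrg3 was listed at 0 in all 10 libraries.

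Genes around the receptors were counted by role relative to the median gene, against the background of 20.8% called in each direction, and log2 differences of these genes are on that scale. Counts without the 3 Xist libraries stand against 12.4% higher and 13.7% lower. As deposited, where 76.5% of tested genes were called higher, the counts called higher were 10 of 11 release genes, 22 of 23 uptake genes, 17 of 19 adaptors and kinases, 16 of 16 PI3K and AKT genes, 13 of 14 feedback inhibitors and 15 of 15 ERK-induced genes, and 0 were lower. Of 11 genes for release of ligands (proteases and their regulators), 4 rose and 1 fell, with a median log2 difference of 0.18. The 4 include Adam12, which was under 1 TPM in every control heart and passed the filter only through the cKO group. Adam19, a protease that cleaves neuregulin, averaged 52.9 ± 6.52 TPM in cKO and 18.6 ± 2.64 TPM in control hearts (log2 difference 0.74, limma adjusted p = 1.23e-05). Adam9, a related protease, averaged 40.1 ± 5.84 and 15.4 ± 2.09 TPM (log2 difference 0.61, limma adjusted p = 8.53e-05). Cd9, a tetraspanin that binds the Hbegf precursor, rose by 0.44, and Timp3, an inhibitor of these proteases, fell by 0.49 on the log2 scale. Adam10 and Adam17, the main sheddases of ErbB ligands, were not called (0.11 and −0.03). With the Xist libraries left out, 3 of the 11 rose and 1 fell.

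Of 23 genes for ubiquitination and uptake of the receptors, 9 rose and 2 fell, with a median of 0.11. Hgs, which brings ubiquitinated receptors to the ESCRT machinery, averaged 26.5 ± 3.50 TPM in cKO and 7.62 ± 1.55 TPM in control hearts (log2 difference 1.00, limma adjusted p = 6.66e-05). Its partner Stam2 rose by 0.48 and the deubiquitinase Stambp by 0.50. Sh3kbp1, an adaptor that binds Cbl, fell by 0.70, at 85.3 ± 4.96 TPM in cKO and 83.4 ± 7.93 TPM in control hearts. Cbl, the ubiquitin ligase of Egfr, was not called (log2 difference 0.16). Leaving out the 3 cKO libraries with Xist, 5 rose and 2 fell.

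Of 19 adaptors and RAS and ERK pathway kinases, 6 rose and 2 fell, with a median of −0.03. Map2k1, the kinase that activates ERK, averaged 40.1 ± 3.42 TPM in cKO and 16.1 ± 2.33 TPM in control hearts (log2 difference 0.55, limma adjusted p = 3.71e-05), and Nras rose by 0.29. Rps6ka3, an ERK-activated kinase, fell by 0.52. Of 16 genes for PI3K and AKT, 1 rose and 3 fell, with a median of −0.02. Akt2 and Akt1, kinases downstream of PI3K, fell by 0.48 and 0.19, and Pik3r1, a regulatory subunit of PI3K, fell by 0.33, although all 3 were called higher as deposited (0.25, 0.54 and 0.34). Without the 3 cKO libraries with Xist, 1 adaptor or RAS gene rose and 1 fell, and 0 PI3K and AKT genes rose and 1 fell.

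**Figure D4:**
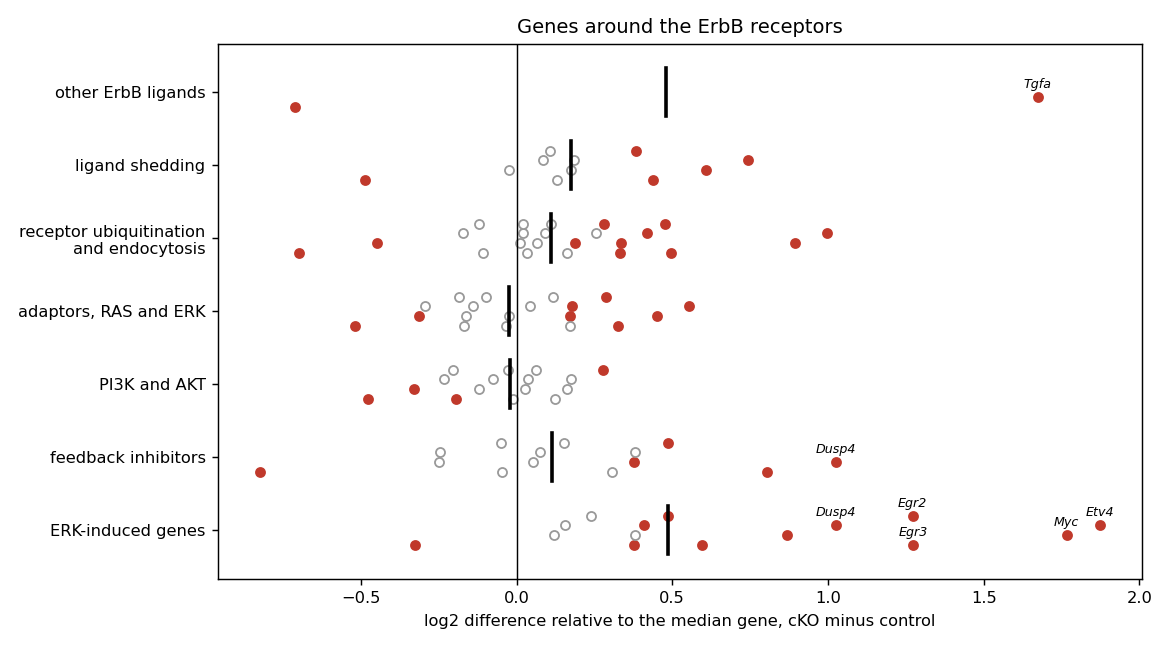
Log2 difference relative to the median gene (cKO minus control) of each tested gene in 7 lists around the receptors; red filled points are called genes, open grey points are not called, and black bars are list medians. The ERK-induced genes have a median of 0.49, the highest of the lists with more than 2 tested genes, with Etv4 and Myc farthest to the right.

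Of 16 genes induced by ERK, 15 were tested: 10 rose and 1 fell, with a median of 0.49. Myc, a growth regulator, averaged 15.5 ± 2.98 TPM in cKO and 2.15 ± 0.309 TPM in control hearts (log2 difference 1.77, limma adjusted p = 2.94e-07). Etv4, an ETS factor, averaged 12.8 ± 2.24 TPM in cKO and 1.54 ± 0.574 TPM in control hearts (log2 difference 1.87, limma adjusted p = 1.02e-05). Egr2, an immediate early gene, and Dusp4, a phosphatase that inactivates ERK, rose by 1.27 and 1.02. Egr2 and Dusp4 were under 1 TPM in every control heart and passed the filter only through the cKO group. Other signals also induce these genes, and ERK activity was not measured. With the 3 cKO libraries with Xist left out, 8 rose and 1 fell. Of 15 feedback inhibitors, 14 were tested: 4 rose and 1 fell, with a median of 0.11, against 3 and 3 without the Xist libraries. Spred1, an inhibitor of RAS signalling, averaged 18.6 ± 2.14 TPM in cKO and 6.08 ± 1.09 TPM in control hearts (log2 difference 0.80, limma adjusted p = 9.58e-06). Spry2 rose by 0.49, and Dusp5, a nuclear ERK phosphatase, fell by 0.82. The inhibitor Errfi1, which binds Egfr and Erbb2, was not called (log2 difference −0.25, limma adjusted p = 0.119), but was called lower without the Xist libraries (−0.43, limma adjusted p = 0.0341). Lrig1 was not called (−0.05). The 2 lists share Spry2, Spry4, Dusp4 and Dusp6, so their counts are not independent.

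Markers of cell types moved as well, relative to the median gene, where 20.8% of tested genes were called in each direction. As deposited, 76.5% of tested genes were called higher and 3.46% lower. In bulk hearts, fewer cells of a type and less RNA per cell cannot be told apart. Of 8 cardiomyocyte markers 8 fell (3 as deposited), with a summed scaled level of 25665 to 32929 in cKO and 49307 to 52411 in control hearts. Their summed TPM as deposited overlapped (35406 to 39378 in cKO and 35614 to 44040 in control hearts). Of 15 endothelial markers 15 fell (summed 945.7 to 1271 in cKO and 1643 to 1909 in control hearts). As deposited 1 endothelial marker was higher and 1 lower, and the summed TPM overlapped (1239 to 1553 in cKO and 1171 to 1604 in control hearts). Of 14 tested macrophage markers 13 rose (371.3 to 522.6 in cKO and 106.5 to 121.4 in control hearts), with C1qa and C1qb lowest in adjusted p (log2 differences 1.95 and 2.04). Of the 13, Fcgr1 was under 1 TPM in every control heart and passed the filter only through the cKO group. Itgam, Cx3cr1, Ptprc and Trem2 were each under 1 TPM in at least 1 control heart (lowest 0.556, 0.587, 0.582 and 0.379 TPM). Of 10 fibroblast markers 8 rose and 2 fell (1175 to 1437 in cKO and 822.5 to 1024 in control hearts). As deposited 14 of the 14 tested macrophage and 9 of the 10 fibroblast markers were higher, against 76.5% of all tested genes. Leaving out the Xist libraries, 12.4% of tested genes were called higher and 13.7% lower. In that fit 8 cardiomyocyte and 13 endothelial markers fell, 13 macrophage markers rose, and 6 fibroblast markers rose and 1 fell. The part of these shifts in the results for the receptors and ligands was not tested. Sox10, a marker of Schwann cells, which make Erbb3, was low, at 0.600 ± 0.260 TPM in cKO and 0.350 ± 0.137 TPM in control hearts.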

How the data were processed

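RNA of whole hearts from 10 mice was sequenced, 5 per group, and titles gave the group and replicate of each. As deposited by the authors, the values are TPM in 1 table, closed to 1000000 per library, with 55858 genes. Per the submitters' processing notes, the tools named, with no role, included HTSeq 0.11.2, STAR 2.7.1 and Trimmomatic 0.32, and the build was mm10. Depth is unknown from TPM, so no counting interval was given. Sources used here do not state the annotation release, the gene lengths or the strand setting. Positions are from GENCODE M21, to which 51460 IDs matched without their version.

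Values were tested as log2(TPM + 1) with limma 3.58.1 in R 4.3.3 (mean-variance trend, two-sided, Benjamini-Hochberg over 13282 genes), which understates differences of low genes. Size factors were medians of ratios over 16393 genes above 0 in all libraries. The fit was tested on simulated data. Alternatives were other pseudocounts, filters, variance models, library weights, scalings (the trimmed mean of M values was computed without count weights), a Ddx3y covariate and leaving out libraries. Tables were handled with Python 3.11.15 and pandas 2.3.3.

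The members and lists were chosen with earlier results of these data known. Named genes were the 9 members, the 6 other ligands, up to 4 called genes per pathway list by lowest adjusted p relative to the median gene, and up to 2 per marker list. Genes given as not called, Adam12, Fcgr1, Itgam, Cx3cr1, Ptprc, Trem2, Myh6, Sox10 and Xist were named after their values were seen. Some genes that the rule names are not reported here. A rule to name the 3 genes nearest in profile to each member changed by at least 1 on the relative log2 scale named none, since no member changed that much.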

Additional observations from a re-analysis of the deposited data

Results flagged for a closer look

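In groups of 5 libraries, 62 sets of values were checked for a library far from the other 4 (gap over range above 0.71), a rule that chance meets in about 1 in 20, and 5 were flagged. Control replicate 4 held Areg at 0.0520 TPM as deposited and 0.0731 scaled TPM, where the other control libraries were at 0. Control replicate 9 held Btc at 0.360 scaled TPM, below the other control libraries at 0.654 to 0.765. Control replicate 6 held Nrg2 at 1.61 TPM as deposited, above the others at 0 to 0.325, and at 1.92 scaled TPM, above the others at 0 to 0.456. The number of reads behind these low values is unknown.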

How the results depend on the processing

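The 5 libraries of each group limit the precision, and depth is unknown. As deposited, 6064 genes were called higher and 1373 lower with TPM over nuclear genes (main 10160 and 460), where Erbb3 reversed to −0.22 (limma adjusted p = 0.168); with a mean TPM of at least 5, 288 genes were called lower and 1 member higher. Relative to the median gene, leaving out the 3 cKO libraries with Xist, chosen after seeing the data, gave 3461 genes called (1642 higher, 1819 lower; main 5529), with 1 member higher and 0 lower. It gave Egfr 0.32 (limma adjusted p = 0.163) and Erbb3 −0.33 (limma adjusted p = 0.0924). With Ddx3y as a covariate, 1 member was higher and Egfr was 0.34 (limma adjusted p = 0.0734). With a mean TPM of at least 5, 0 members were higher and 0 lower, since most members were not tested. Over the leave-one-out fits, relative log2 differences ranged from 0.37 to 0.47 for Egfr, 0.32 to 0.40 for Erbb2, −0.40 to −0.34 for Erbb3, 0.08 to 0.21 for Erbb4, 0.14 to 0.22 for Hbegf, −0.0978 to 0.0042 for Btc and −0.0077 to 0.11 for Nrg1. The Erbb4 receptor share difference (main −0.426 percentage points) ranged from −1.63 to 0.409, and was 0.409 without cKO replicate 7 and 0.049 without control replicate 9. The causes were not tested. As deposited, Btc kept its call in 4 and Nrg1 in 8 of 16 alternatives. No paired analysis was possible because the groups share only replicate number 6.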

Other observations

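Other marker lists, relative to the median gene, gave the following, against 20.8% of tested genes called in each direction. Without the Xist libraries, 12.4% of tested genes were called higher and 13.7% lower. Of 9 smooth muscle and pericyte markers 2 rose and 4 fell, with Abcc9, a channel subunit of pericytes, at a log2 difference of −0.89 and Rgs5 at −0.45. Of 5 tested endocardial markers 2 rose and 1 fell, with Tmem108 at 0.99 and Cytl1 at −0.72. Of 2 tested epicardial markers, Tbx18 rose by 0.47 and Wt1 fell by 1.19. Without the 3 Xist libraries, 0 smooth muscle and pericyte markers rose and 4 fell, 1 endocardial marker rose and 1 fell, and Tbx18 was not called (0.37, limma adjusted p = 0.108). As deposited, 5 of the 9 smooth muscle and pericyte and 4 of the 5 endocardial markers were called higher and 0 lower. Rgs5 was among those called higher (log2 difference 0.29, limma adjusted p = 0.0266), and Abcc9 was not called (−0.17, limma adjusted p = 0.157). The shares over all tested genes were 76.5% higher and 3.46% lower. Of 3 tested neutrophil and mast cell markers 0 were called by limma. Of 2 tested Schwann cell and neuron markers, Tubb3, a neuronal tubulin, rose, and passed the filter only through the cKO group, with every control under 1 TPM: it averaged 20.7 ± 5.12 TPM in cKO and 0.590 ± 0.101 TPM in control hearts (log2 difference 3.24, limma adjusted p = 1.76e-08).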
